A study of Mus musculus with 17 samples.

Results

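The dual-specificity MAP kinase phosphatases described here are the products of 6 genes, Dusp1, Dusp2, Dusp4, Dusp5, Dusp6 and Dusp16, out of 21883 protein-coding genes annotated on the standard chromosomes of the mouse GRCm38 build. Each gene was represented by the RNA polymerase II (Pol II) summits lying within its annotated span or within 1 kb of either end. Pol II was recovered by chromatin immunoprecipitation and sequencing (ChIP-seq) from bone marrow-derived macrophages, primary mouse cells grown out of marrow. The cells were N4bp1 knockout (KO) or wild type (WT), and either genotype was untreated or had received R837 for 2, 4 or 6 h, giving 8 groups of 2 libraries. R837 (imiquimod) is a small-molecule agonist of TLR7, an endosomal sensor of single-stranded RNA, and N4BP1 restrains inflammatory cytokine output until caspase-8 cleaves it. The labels state neither the dose of R837 nor the segment of N4bp1 that was deleted. Nor do they tell whether the libraries of a group are separate cultures or mice, so each p-value reflects the spread between libraries alone.

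MAP kinases (ERK, JNK and p38) are switched on by phosphorylation of a threonine and a tyrosine in their activation loop, and the dual-specificity phosphatases remove both phosphates and so switch them off. Many of these phosphatase genes are themselves immediate targets of the kinases, which makes them a negative feedback loop. In macrophages DUSP1 is known for limiting p38 and JNK activity, and with it cytokine production, after Toll-like receptor ligation.

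The values are ranks of summits in the deposited lists, 1 list per library, ordered by the authors' own score. The shortest list held 8394 summits, and only that many of the best were kept from each. The rank score of a gene is log2 of 8395 over its best rank. It is 0 when no kept summit lies in the region and at most 13.04. It gives a place in a list, which is no measure of how much polymerase was bound. Changes are differences in mean rank score ± standard error (SE) from 1 limma fit over 8473 genes and 16 libraries, and a change passed at a Benjamini-Hochberg adjusted p under 0.05 over all 8473 genes. Where groups of libraries are said not to overlap, the share of all genes that separate in that way was not determined.

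The lists held 8394 to 29760 summits after R837 and 20607 to 24720 summits in untreated cells. Their best 8394 summits fell in the regions of 2693 to 5882 genes after R837 and of 6428 to 6689 genes in untreated cells, so a gene was less likely to be reached in an R837 list. Replicate 2 of KO at 6 h stood apart, with the longest list and a highest score of 563.5, against at most 320.4 in the other 15 libraries. Library codes put the untreated and 2 h libraries in 1 series and the 4 h and 6 h libraries in a series each. Time and series thus cannot be told apart for 4 h or 6 h against untreated or 2 h, or for 6 h against 4 h. This holds for every difference between those times given below. R837 against untreated over both genotypes also draws on the 4 h and 6 h series. Each KO against WT comparison at 1 time stayed inside a series. Of 12 macrophage markers, 11 held a summit in at least 1 library, Mrc1 held none, and their summed rank score was 36.7 to 62.1 after R837 and 34.4 to 37.7 in untreated cells. Markers of B cells, mast cells, erythroid cells and fibroblasts held no summit in any shortened list, and the highest summed score of dendritic cell markers was 5.15 after R837 and 1.61 untreated. T and NK cell markers summed to at most 0.26 after R837 and 0.58 untreated, and neutrophil markers to at most 1.44 after R837 and 0 untreated. The targeted gene N4bp1 rose after R837 by 2.54 ± 0.38 (limma, adjusted p = 0.000242), and differed between KO and WT at 6 h by 1.48 ± 0.66 (limma, adjusted p = 0.355), which leaves the genotype labels unchecked, since the deleted part is not stated. The rank score of N4bp1 was 0 in all untreated libraries, so it could only rise.

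Promoter sequences are given first for the 4 phosphatase genes that passed in any comparison of rank scores below. They are the RefSeq promoters of the GRCm38.p6 table, 250 bases before the gene start to 50 bases after it, on the strand of the gene. Capitals mark every match, on either strand, of the cyclic AMP response element TGACGTCA or its core TGACG, of the NF-kB consensus (GGG, any 5 bases, CC), of the CArG box bound by serum response factor, and of TATAAA.
Dusp1, chr17:26508423-26508722, minus strand: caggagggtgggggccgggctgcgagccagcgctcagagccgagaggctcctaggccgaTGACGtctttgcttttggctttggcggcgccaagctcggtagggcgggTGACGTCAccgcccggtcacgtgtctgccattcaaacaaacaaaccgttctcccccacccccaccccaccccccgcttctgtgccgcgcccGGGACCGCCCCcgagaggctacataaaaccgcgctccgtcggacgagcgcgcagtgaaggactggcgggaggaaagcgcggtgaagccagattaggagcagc
Dusp2, chr2:127335909-127336208, plus strand: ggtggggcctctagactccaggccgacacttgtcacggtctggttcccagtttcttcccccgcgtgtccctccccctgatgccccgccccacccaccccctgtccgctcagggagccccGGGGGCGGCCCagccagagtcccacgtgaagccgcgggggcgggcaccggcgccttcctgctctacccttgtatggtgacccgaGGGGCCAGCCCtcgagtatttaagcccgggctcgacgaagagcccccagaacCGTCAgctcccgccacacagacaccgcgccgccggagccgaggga
Dusp5, chr19:53528895-53529194, plus strand: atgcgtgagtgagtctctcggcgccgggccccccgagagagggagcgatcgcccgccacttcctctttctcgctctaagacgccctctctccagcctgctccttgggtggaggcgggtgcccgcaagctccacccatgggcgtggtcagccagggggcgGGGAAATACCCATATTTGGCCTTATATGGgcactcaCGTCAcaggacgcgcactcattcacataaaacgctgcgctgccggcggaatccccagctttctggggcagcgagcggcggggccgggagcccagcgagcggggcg
Dusp16, chr6:134792579-134792878, minus strand: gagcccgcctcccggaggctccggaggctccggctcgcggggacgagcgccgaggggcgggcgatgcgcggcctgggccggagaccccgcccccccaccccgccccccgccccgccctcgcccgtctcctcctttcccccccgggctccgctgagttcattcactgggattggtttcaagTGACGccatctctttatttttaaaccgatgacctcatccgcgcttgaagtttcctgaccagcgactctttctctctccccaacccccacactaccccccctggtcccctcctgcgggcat

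The complete element TGACGTCA stood in 1 of the 5 phosphatase promoters in the table, that of Dusp1, at −143 to −136 with the first base of the gene as 0, and in 1.79% of all 32851 promoters. Its core TGACG, which every complete element contains, stood in the promoters of Dusp1, Dusp2, Dusp5 and Dusp16, and in 20.8% of all. The NF-kB consensus stood in those of Dusp1, Dusp2, Dusp5 and Dusp6, and in 50.8% of all. The Dusp5 promoter held 2 adjacent CArG boxes, at −82 to −73 and −72 to −63, the first sharing its outermost base with an NF-kB match, while 1.63% of all promoters held a CArG box. Dusp5 also held GGAAGT, the ETS core, on the opposite strand, as did 23.8% of all promoters. Neither TGANTCA, the AP-1 site, nor TATAAA was found in the 5 promoters, against 7.81% and 13.6% of all. These matches describe letters and not binding, and the promoter of Dusp4 was not analysed here. At least 1 Pol II summit lay inside the 300-base window of Dusp5 in 9 of 12 R837 and 2 of 4 untreated libraries. Dusp2 had such a summit in 7 of 12 and 3 of 4, Dusp6 in 7 of 12 and 4 of 4, Dusp1 in 1 of 12 and 0 of 4, and Dusp16 in none of the 16.

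The 6 genes covered most of the scale. Dusp1 had the highest mean rank score, 8.21 over the 16 libraries (6.24 to 10.45), and held a summit near the top of every list. Dusp2 followed with a mean of 5.40 and the widest spread of the 6, from 0.40 to 7.95. Dusp5, Dusp4 and Dusp16 averaged 1.58, 1.26 and 1.21, with ranges that overlapped (highest 4.16, 4.18 and 3.18). Dusp6 had the lowest mean, 0.23, and never exceeded 1.36. The order of the first pair held in 15 of 16 libraries, whereas Dusp5, Dusp4 and Dusp16 did not separate beyond their spread.

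**Figure D1:**
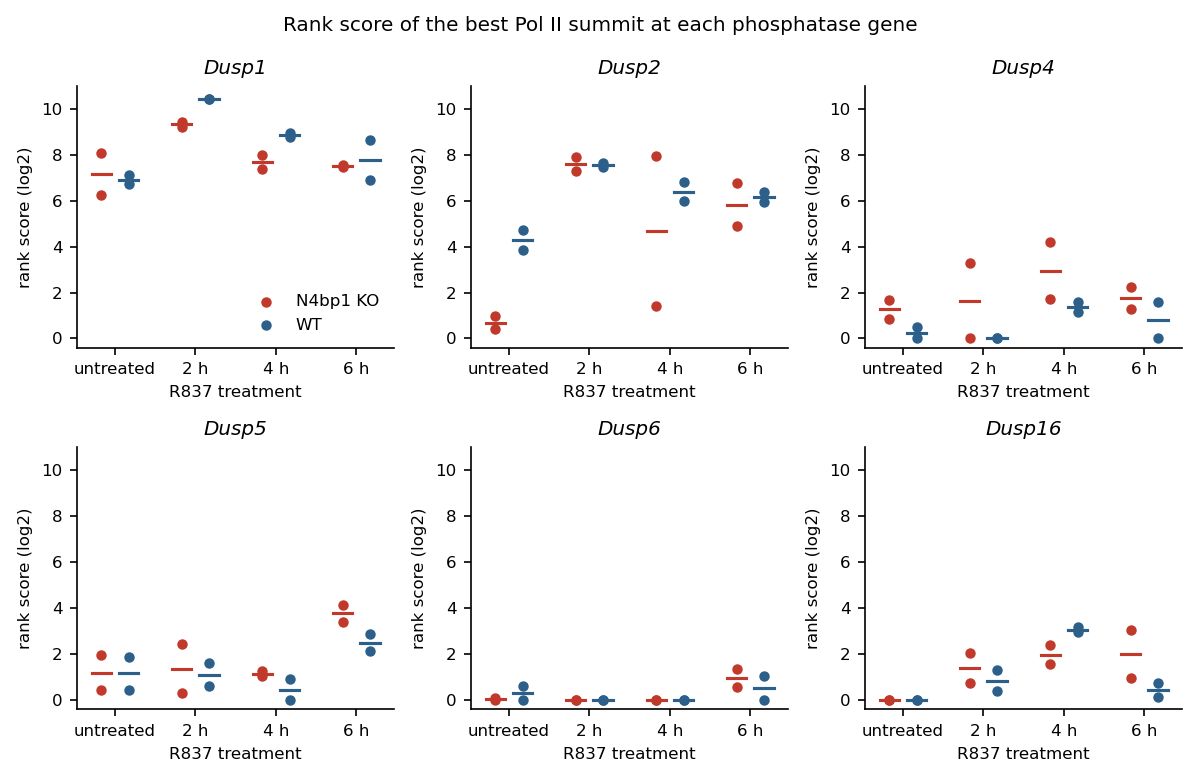
Rank score (log2, vertical axis) of the best Pol II summit at each phosphatase gene by R837 time (horizontal axis), in N4bp1 KO (red, left) and WT (blue, right) macrophages; points are libraries and bars are means of 2. Dusp1 and Dusp2 reach their highest means at 2 h of R837, Dusp16 is at 0 in all untreated libraries, and Dusp5 is highest at 6 h.

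After R837, 3 of the 6 phosphatase genes rose in rank score over both genotypes, Dusp1, Dusp2 and Dusp16, and none fell. Dusp16 was at 0 in all untreated libraries and could only rise. Across all genes tested 5.79% passed as higher and 29.5% as lower. The median change was 1.11 over the 6 genes and −0.33 over all genes. When each gene was given 1 rank, so that list coverage does not differ, the median of all genes was 0.04, and 418 genes rose (7.99%) and 626 fell (12%), against 491 and 2502 in the comparison as reported. In that setting Dusp1 and Dusp2 again passed and Dusp16 did not (0.70, limma, adjusted p = 0.142). Falls therefore stand beside a background in which many genes were lower after R837.

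Dusp1 encodes MKP-1, a nuclear phosphatase that prefers p38 and JNK, and lies on chr17:26505591-26508472 (minus strand, gene ID 19252). In untreated cells its best summit ranked 111 and 31 in KO and 80 and 60 in WT. At 2 h of R837 it ranked 12 and 14 in KO, and 6 in both WT lists. At 4 h the ranks were 33 and 51 in KO and 17 and 19 in WT, and at 6 h 47 and 44 in KO and 71 and 21 in WT. Every 2 h library and every WT library at 4 h thus ranked Dusp1 above all 4 untreated libraries, and at 6 h the R837 and untreated ranks overlapped. Over both genotypes the rank score averaged 8.60 after R837 and 7.04 in untreated cells, a rise of 1.56 ± 0.41 (limma, adjusted p = 0.0107). Without replicate 1 of untreated KO the rise was 1.10 and did not pass (limma, adjusted p = 0.0639). In WT at 2 h Dusp1 rose by 3.53 ± 0.72 (limma, adjusted p = 0.00533), the 1 phosphatase gene of 6 that passed there, against 3.53% of all genes higher. In KO at 2 h the change was 2.18 ± 0.72 (limma, adjusted p = 0.066). In WT the rank score at 6 h minus that at 2 h was −2.69 ± 0.72, which did not pass (limma, adjusted p = 0.0691).

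The position of the Dusp1 summit also differed between times. Its best summit lay 118 to 202 bp after the gene start in the 4 untreated libraries and 195 to 458 bp after it in the 4 libraries at 2 h. At 4 h it lay past the annotated end of the gene in 3 of 4 libraries, 321 and 476 bp past it in KO and 496 bp past it in replicate 1 of WT, and at the start, at 226 bp, in replicate 2 of WT. At 6 h it lay 232 bp past the end in replicate 1 of KO and 412 bp past it in replicate 1 of WT, and at 858 bp and 813 bp after the start in the second replicates of KO and WT. Both first replicates at 6 h kept a second summit near the start, at rank 581 in KO and 633 in WT. In each genotype, then, both kinds of position occurred at 6 h. The rise over both genotypes was therefore tied to the region used. It was −1.03 ± 1.31 with the gene span alone and −0.86 ± 1.12 with summits within 1 kb of the start alone, neither of which passed (limma, adjusted p = 0.576 and 0.583). The region of Dusp1 also overlaps that of Gm34455, a long non-coding RNA gene. Where they overlap, Pol II on either gene cannot be told apart.

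Dusp2 encodes PAC-1, a nuclear phosphatase first known from activated lymphocytes, and lies on chr2:127336159-127338377 (plus strand, gene ID 13537). Its best summit ranked 4266 and 6368 in untreated KO cells and 574 and 322 in untreated WT cells. At 2 h of R837 it ranked 35 and 53 in KO and 48 and 42 in WT. At 4 h it ranked 3198 and 34 in KO and 134 and 74 in WT, and at 6 h 77 and 283 in KO and 137 and 102 in WT. All R837 libraries but replicate 1 of KO at 4 h ranked Dusp2 above every untreated library. Its rank score averaged 6.37 after R837 and 2.49 untreated, a rise of 3.88 ± 0.84 (limma, adjusted p = 0.00312). The rise did not pass with the gene span alone (2.60 ± 0.99, limma, adjusted p = 0.0646). Nor did it pass with summits within 1 kb of the start alone (2.19 ± 0.83, limma, adjusted p = 0.0599). In KO the rise was 6.92 ± 1.45 at 2 h (limma, adjusted p = 0.00741), 1 of 6 phosphatase genes against 2.63% of all genes higher. At 6 h in KO it was 5.14 ± 1.45 (limma, adjusted p = 0.0285). Neither rise held against the loss of every library: without replicate 2 of untreated KO the rise at 2 h was 6.63 (limma, adjusted p = 0.0513), and without any 1 of the 4 KO libraries compared at 6 h the change there was 4.20 to 6.08 (limma, adjusted p = 0.0571 to 0.163). In WT the change was 3.26 ± 1.45 at 2 h, 2.11 ± 1.45 at 4 h and 1.86 ± 1.45 at 6 h, and none of these passed (limma, adjusted p = 0.148, 0.371 and 0.418). The WT change at 2 h passed without either replicate of KO at 4 h, libraries outside that comparison (limma, adjusted p = 0.0101 and 0.00996).

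The exceptional KO library at 4 h was decided by the edge of the region. Its strong Dusp2 summit, at rank 37, lay 3359 bp after the gene start, outside the 1 kb margin and inside the annotated span of the neighbouring gene Astl, and only a weaker one at −785 bp, before the start, was counted. In the other 3 libraries at 4 h a second summit stood at a like place, 3429 to 3571 bp after the start, and the best one 23 to 41 bp after it. With the gene span extended by 3 kb, the SE of Dusp2 at a single time fell to 0.66, and the rises in WT at 2 h and 4 h and in KO at 4 h passed (3.26, 2.11 and 7.20; limma, adjusted p = 0.00495, 0.0477 and 2.09e-05). In that setting 3.81%, 3.8% and 4.07% of all genes passed as higher. For the KO value at 4 h, Pol II on Dusp2 and on Astl cannot be told apart.

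Dusp2 summits spread along the gene after R837. All 4 untreated libraries had their best summit 27 to 55 bp after the start. At 2 h the best summit was 50 and 52 bp after the start in KO, with a second near the gene end (2369 and 2408 bp), whereas in WT it was at 1703 and 1648 bp, the only one in the region. At 6 h the best summit lay past the gene end in all 4 libraries, at 2382 and 2284 bp in KO and at 2412 and 2927 bp in WT, with a second within 17 bp of the start. The best summits from 1648 bp onwards also lay in the region of Astl, and Pol II on either gene cannot be told apart there. With the gene span alone the KO change at 6 h was −0.69 ± 1.71 (limma, adjusted p = 0.858).

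**Figure D2:**
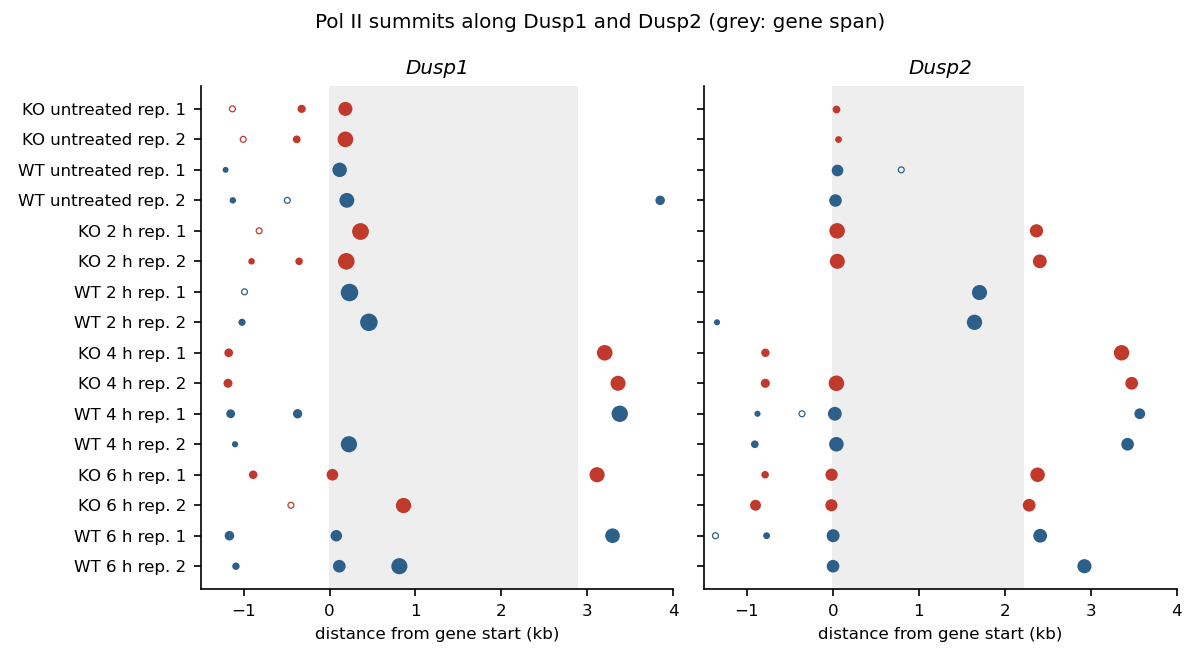
Pol II summits along Dusp1 (left) and Dusp2 (right) by distance from the gene start in kb (horizontal axis), with 1 row per library (KO red, WT blue) and the gene span in grey; filled points are among the 8394 best summits, larger ones rank higher, and open points are weaker. Untreated libraries have their large point just after the start, while at 4 h and 6 h large points also stand past the end of the span.

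Dusp4 encodes MKP-2, a nuclear phosphatase of ERK and JNK, and lies on chr8:34807610-34819894 (gene ID 319520; its strand is not in the annotation used here). Its best summit ranked 4654 and 2636 in untreated KO cells and 15774 and 5911 in untreated WT cells. At 2 h it ranked 851 in replicate 1 of KO and was absent in replicate 2 of KO, and in WT it was absent in replicate 1 and ranked 10827 in replicate 2. At 4 h it ranked 2567 and 463 in KO and 3807 and 2756 in WT. At 6 h it ranked 3438 and 1760 in KO, 2826 in replicate 1 of WT and nowhere in replicate 2 of WT. KO and WT ranks, 2 libraries each, did not overlap in untreated cells or at 4 h, and replicates differed widely at 2 h. KO minus WT in rank score did not pass at either (1.008 ± 1.005 untreated and 1.571 ± 1.005 at 4 h, limma, adjusted p = 0.887 and 0.899). Untreated WT rank scores were 0 and 0.51, near the floor. The share of all genes whose KO and WT ranks did not overlap was not determined. The change after R837 was 0.66 ± 0.58 (limma, adjusted p = 0.393). Over all R837 times the rank score was 2.12 in KO and 0.72 in WT, a difference of 1.40 ± 0.58 that did not pass (limma, adjusted p = 0.344). In 12 of the 13 lists with a Dusp4 summit, the best one lay within 300 bp of the lower-coordinate end of the gene; in replicate 1 of untreated WT it lay 2179 bp inside that end.

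Dusp5 encodes a nuclear phosphatase specific for ERK and lies on chr19:53529145-53541809 (plus strand, gene ID 240672). In untreated cells its best summit ranked 2190 and 6221 in KO and 2300 and 6142 in WT. At 2 h it ranked 1564 and 6799 in KO and 5557 and 2781 in WT, and at 4 h 4102 and 3534 in KO and 4529 and 9691 in WT. At 6 h it ranked 798 and 471 in KO and 1159 and 1944 in WT. The 4 libraries at 6 h ranked Dusp5 above all 12 others except for replicate 1 of KO at 2 h, which lay above the last WT value, and both KO libraries lay above both WT libraries. How many of all genes separate KO from WT this way was not determined. In KO at 6 h Dusp5 rose by 2.59 ± 0.80 (limma, adjusted p = 0.0424), so that 2 of 6 phosphatase genes, with Dusp2, passed there, against 5.13% of all genes higher. This call is close to the threshold: it was kept in 10 of 29 alternatives. Without replicate 2 of KO at 6 h, the library that stood apart, the change was 2.21 for Dusp5 (limma, adjusted p = 0.196) and 6.08 for Dusp2 (limma, adjusted p = 0.0571), and Dusp16 passed instead. In WT at 6 h the change in Dusp5 was 1.32 ± 0.80 (limma, adjusted p = 0.284), and KO minus WT at 6 h was 1.29 ± 0.80 (limma, adjusted p = 0.553). Its best summit lay between −295 bp and 45 bp from the start in all 16 lists, and no shortened list held a second one.

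Dusp6 encodes MKP-3, a cytoplasmic phosphatase specific for ERK, and lies on chr10:99263231-99267489 (plus strand, gene ID 67603). Its best summit ranked 12967 and 8032 in untreated KO cells and 5527 and 9306 in untreated WT cells. None of the 4 lists at 2 h held a summit in its region. At 4 h it ranked 10313 and 10643 in KO and 10004 and 14526 in WT, all below the shortened lists, and at 6 h 5742 and 3265 in KO and 8298 and 4131 in WT. Within 1 kb, Dusp6 was thus missing at 2 h and best placed at 6 h, where KO and WT overlapped. The margin bears on this gene: 13 lists held a summit between −1976 bp and −1180 bp from the start, outside the region, and in 10 of them it ranked better than any inside. The outer summit ranked 1033 and 1484 in untreated KO and 5553 and 7146 in untreated WT, 2359 in replicate 1 of KO at 2 h, 5374 and 1309 in KO at 4 h and 1388 and 1491 in WT at 4 h. Its change after R837 was 0.08 ± 0.19 (limma, adjusted p = 0.764), and in KO at 6 h it was 0.92 ± 0.32, which did not pass (limma, adjusted p = 0.0707). With the gene span extended by 3 kb the KO difference at 6 h was −1.81 ± 0.76 (limma, adjusted p = 0.127) and that in WT at 4 h was 2.13 ± 0.76 (limma, adjusted p = 0.0791), and neither passed. Counted as summits in the deposited lists, on the scale log2 of the count plus 1, Dusp6 fell by 0.63 over both genotypes (limma, adjusted p = 0.00301), where 36.4% of all genes passed as lower and their median was −0.46. All its best summits lay between −239 bp and 74 bp from the start.

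Dusp16 encodes MKP-7, a phosphatase that acts on JNK and p38, and spans chr6:134715468-134807063 (minus strand, gene ID 70686), with the start site of the promoter table at 134792628. No untreated list held a summit in its region. At 2 h of R837 the best summit ranked 5041 and 2066 in KO and 3420 and 6512 in WT. At 4 h it ranked 1595 and 2871 in KO and 928 and 1086 in WT, and at 6 h 1029 and 4343 in KO and 5010 and 7654 in WT. Every R837 library therefore lay above every untreated library, with WT above KO at 4 h and KO above WT at 6 h. The share of all genes that separate in these ways was not determined. Neither KO minus WT passed (−1.09 ± 0.70 at 4 h and 1.55 ± 0.70 at 6 h, limma, adjusted p = 0.899 and 0.362). Over both genotypes Dusp16 rose by 1.61 ± 0.40 (limma, adjusted p = 0.00752). Its rank score was 0 in all untreated libraries, so it entered the test through R837 libraries alone. It could therefore only rise against untreated, at single times as well. In WT at 4 h the rise was 3.06 ± 0.70 (limma, adjusted p = 0.0108), 1 of 6 phosphatase genes against 3.53% of all genes higher; without replicate 1 of WT at 4 h it was 2.95 (limma, adjusted p = 0.0693). With the 2 h libraries alone against untreated, which share a series of library codes, the rise was 1.11 ± 0.49 (limma, adjusted p = 0.108). With the 5000 best summits it was 0.95 ± 0.37 (limma, adjusted p = 0.0688). With summits within 1 kb of the start alone it was 0.29 ± 0.38 (limma, adjusted p = 0.583). In WT at 4 h that setting gave 1.59 ± 0.65 (limma, adjusted p = 0.151). A fit of only the groups compared gave 3.06 ± 0.47 there (limma, adjusted p = 0.0591). The best summit lay within 1 kb of the start in 1 of 12 R837 libraries. Its position ran from −3962 bp to 76611 bp, with a median of 1117 bp.

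Dusp16 is 91.6 kb long, and at 4 h and 6 h its region held more summits in the deposited KO lists than in the WT lists. Its region overlaps those of the long non-coding RNA genes Gm36328 and 1700055D16Rik, and Pol II on them cannot be told apart from that on Dusp16 there. Counted in the deposited lists, the region at 2 h had 1 and 3 summits in KO against 2 and 3 in WT. At 4 h there were 81 and 58 in KO against 16 and 18 in WT, and at 6 h 55 and 34 in KO against 3 and 1 in WT. KO and WT did not overlap at 4 h or at 6 h, and the share of all genes whose counts separate this way was not determined. As a share of the list, these were 0.316% and 0.235% in KO and 0.0976% and 0.0913% in WT at 4 h, and 0.248% and 0.114% in KO and 0.0176% and 0.0119% in WT at 6 h. On the scale log2 of the count plus 1, KO was higher than WT by 1.95 ± 0.41 at 4 h (limma, adjusted p = 0.0456) and by 3.97 ± 0.41 at 6 h (limma, adjusted p = 0.000394). KO lists were longer at these times, and 2.02% and 9.13% of all genes passed as higher in KO. In the shortened lists the counts at 4 h were 9 and 4 in KO against 1 and 4 in WT, and at 6 h 10 and 4 in KO against 1 in either WT list. There KO minus WT was 1.16 ± 0.55 at 4 h and 1.89 ± 0.55 at 6 h, and neither passed (limma, adjusted p = 0.66 and 0.144), where 0.626% and 1.5% of all genes were higher. The part of list length in the difference was not tested further. Over all R837 times against untreated, the rise in the number of summits passed in both the deposited lists (3.43 ± 0.24, limma, adjusted p = 3.87e-06) and the shortened lists (1.86 ± 0.32, limma, adjusted p = 0.00243), where 5.19% and 7.16% of all genes were higher. The untreated counts were all 0, so a rise was the only possible direction.

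**Figure D3:**
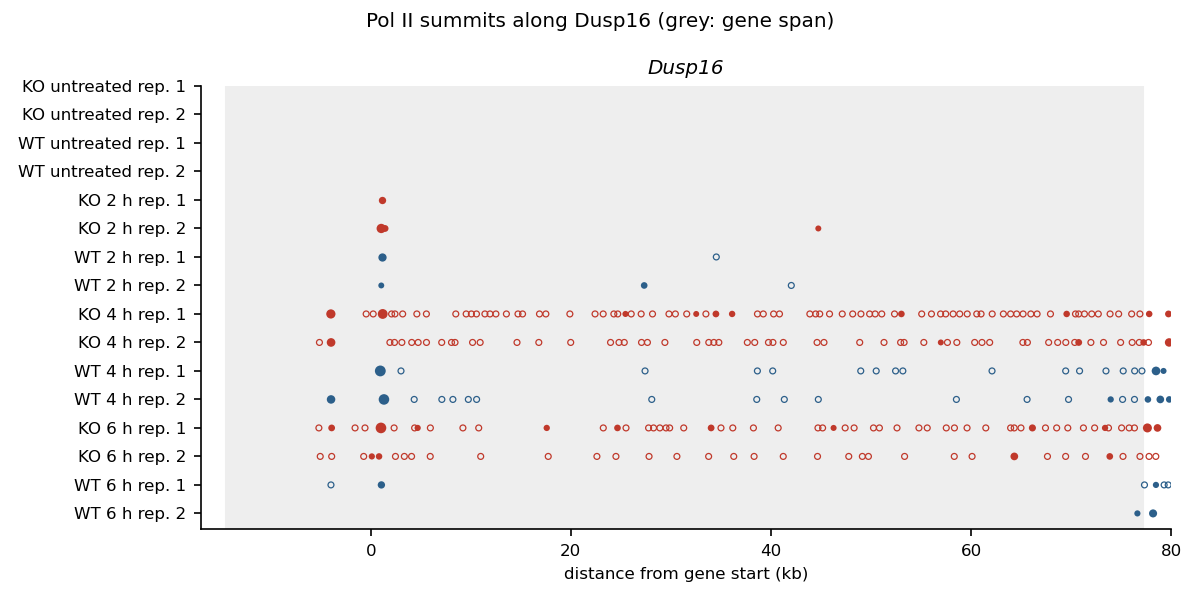
Pol II summits along Dusp16 by distance from its gene start in kb (horizontal axis), with 1 row per library (KO red, WT blue) and the annotated span in grey; filled points are among the 8394 best summits, larger ones rank higher, and open points are weaker. Untreated rows are empty in the span, and the 4 KO rows at 4 h and 6 h hold 34 to 81 summits in the region, against 1 to 18 in the WT rows at those times.

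No phosphatase gene passed between KO and WT on the rank score, in untreated cells or at any R837 time. At an unadjusted p under 0.05 there was 1 of 6 in untreated cells (Dusp2), 0 at 2 h, 0 at 4 h, 1 at 6 h (Dusp16) and 1 over all R837 times (Dusp4). At the same unadjusted p, the shares of all genes were 10.6% untreated, 5.16% at 2 h, 7.12% at 4 h, 13.3% at 6 h and 12.3% over all R837 times. With adjustment, the shares of all genes that passed in either direction were 1.43% untreated, 0.0708% at 2 h, 0.401% at 4 h, 1.33% at 6 h and 0.755% over all R837 times. Dusp2 in untreated cells had a rank score of 0.69 in KO and 4.29 in WT, a difference of −3.60 ± 1.45 (limma, adjusted p = 0.385). With the gene span extended by 3 kb the same difference had an SE of 0.66 and passed (limma, adjusted p = 0.0165), where 0.654% of all genes passed as lower. Without either replicate of KO at 4 h it passed as well (limma, adjusted p = 0.0333 and 0.033), while the untreated values themselves did not change. Dusp16 at 6 h differed by 1.55 ± 0.70 (limma, adjusted p = 0.362), and by 2.59 ± 0.70 without replicate 2 of KO (limma, adjusted p = 0.15). Dusp1 in KO minus WT was −1.11 ± 0.72 at 2 h and −1.19 ± 0.72 at 4 h, and neither passed (limma, adjusted p = 1 and 0.87). The 95% intervals of these Dusp1 differences ran from −2.66 to 0.44 and from −2.74 to 0.36.

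**Figure D4:**
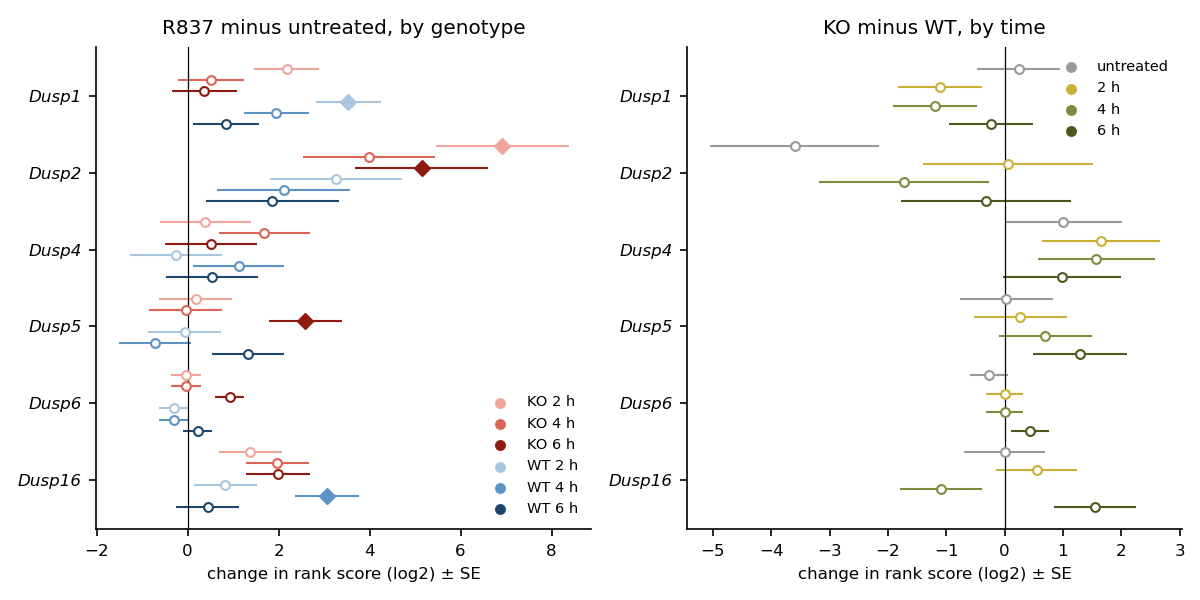
Change in rank score (log2, horizontal axis) ± SE of the limma fit for each phosphatase gene, R837 minus untreated in KO and WT (left) and KO minus WT at each time (right); diamonds passed at adjusted p under 0.05 and open circles did not. Diamonds mark Dusp1 in WT at 2 h, Dusp2 in KO at 2 h and 6 h, Dusp5 in KO at 6 h and Dusp16 in WT at 4 h, and the right panel has none.

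The response to R837 in KO minus that in WT did not pass for any of the 6 genes, at an adjusted or an unadjusted p, and 0.897% of all genes passed in either direction. It was largest for Dusp2, at 2.94 ± 1.68 (limma, adjusted p = 0.556). With the gene span extended by 3 kb it was 4.01 ± 0.76 and passed (limma, adjusted p = 0.0364), where 0.473% of all genes passed as higher; this value includes the KO summit at 4 h inside the span of Astl. That the rise of Dusp2 passed in KO and not in WT is therefore no test of a difference between genotypes on the rank score as defined. In WT at 6 h and in KO at 4 h no phosphatase gene passed against untreated, where 17.2% and 13% of all genes passed in either direction. At an unadjusted p under 0.05 there were 0 and 2 of 6, against 31.2% and 26.4% of all genes. Between 6 h and 2 h none passed either, in KO or WT, against 5.1% and 3% of all genes. At an unadjusted p under 0.05 there were 3 of 6 in KO and 1 of 6 in WT, against 19% and 12.4% of all genes.

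Other genes of the pathway were followed with the same comparison, R837 against untreated over both genotypes, where 5.79% of all genes rose and 29.5% fell. Among 19 other dual-specificity and related phosphatases, 11 were tested, none rose and 4 fell (36.4%). These were Ssh1, a slingshot phosphatase of cofilin (−3.63 ± 0.26), Dusp28 (−2.08 ± 0.30), Dusp3, a small phosphatase also called VHR (−0.78 ± 0.27), and Dusp22 (−0.50 ± 0.15), with limma adjusted p up to 0.038. Dusp22 was at 0 in all R837 libraries, so it could only fall. Of 10 MAP kinases, 3 were tested and 1 fell (33.3%), Mapk14, which encodes p38 alpha (−0.61 ± 0.21, limma, adjusted p = 0.0415). Of 20 upstream kinases, 15 were tested, none rose and 8 fell (53.3%). The falls included Map2k2, which encodes the ERK kinase MEK2 (−2.46 ± 0.45), Map3k2 (−2.11 ± 0.33) and the p38 kinase gene Map2k3 (−1.80 ± 0.33). With 1 rank per gene, Ssh1, Dusp28, Map2k2 and Map3k2 again fell, Dusp3 did not pass, and Dusp22, Mapk14 and Map2k3 were not tested. By list, 2 of 5 other phosphatases, 0 of 2 MAP kinases and 2 of 9 upstream kinases fell in that setting. There 12% of all genes fell.

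Of 10 kinases activated by MAP kinases, 7 were tested: Mapkapk2 and Rps6ka4 rose, Mknk2 and Mapkapk5 fell, and 3 did not pass. Mapkapk5 was at 0 in all R837 libraries, so it could only fall. Mapkapk2 encodes MK2, the p38-activated kinase that stabilises cytokine mRNAs, and averaged 3.69 after R837 and 0.19 untreated (3.50 ± 0.36, limma, adjusted p = 1.33e-05), with all 12 R837 libraries above all 4 untreated ones. Mknk2, an eIF4E kinase gene, averaged 0.20 after R837 and 5.45 untreated (−5.25 ± 0.35, limma, adjusted p = 3.12e-07), and it too did not overlap. Both kept their direction and passed with the lists as deposited, with the 5000 best summits and with 1 rank per gene; Rps6ka4 (0.76 ± 0.25) passed in none of these. A list of 9 genes held Sprouty, Spred and Ras-GAP inhibitors and Lrrfip1. Of these, 6 were tested and 3 fell (50%), Rasa1 by 1.89, Spry2 by 0.48 and Spred3 by 0.20. With 1 rank per gene, 1 of 3 tested fell. Spry2 and Spred3 were at 0 in all R837 libraries, so they could only fall. Spred3 was also lower in untreated KO than in untreated WT (−0.39 ± 0.09, limma, adjusted p = 0.0488). It was the one gene of these lists that passed between genotypes on the rank score. Both Spred3 calls rest on rank scores of 0.45 and 0.33 in the untreated WT libraries, near the floor. All other libraries were at 0. Of 22 nuclear targets, 18 were tested, 1 rose (5.56%) and 5 fell (27.8%), shares close to those of all genes, and 12 did not pass. Ier3, an immediate early gene, rose by 5.45 ± 0.51, and Atf3 (−2.31), Jund (−2.23) and Jun (−2.11) fell, again under all 3 of those settings.

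**Figure D5:**
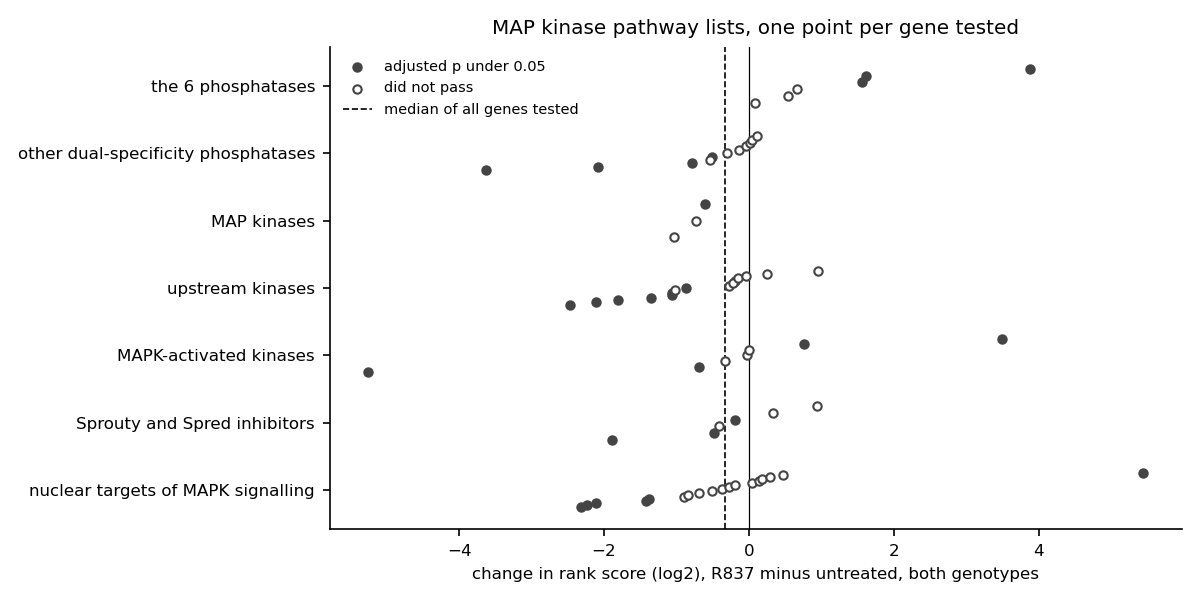
Change in rank score (log2, R837 minus untreated over both genotypes, horizontal axis) of each gene tested in the phosphatase set and in 6 lists of MAP kinase pathway genes (vertical axis); filled points passed at adjusted p under 0.05, open points did not, and the dashed line is the median of all genes, −0.33. In the phosphatase set 3 points passed to the right of 0 and none to the left, and 8 of 15 upstream kinases passed to the left. With 1 rank per gene, 2 of 9 upstream kinases tested fell.

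Across the 16 libraries the rank scores of the 6 genes followed each other only in part. Pearson's r was 0.54 between Dusp1 and Dusp2 and 0.56 between Dusp5 and Dusp6, and lay between −0.31 and 0.31 for the other 13 pairs. All points share the same lists and their differences in coverage, and these coefficients are descriptions. The genes most like Dusp1 among those tested were Etv3 (r = 0.87), Ccl2 (0.86) and Ccdc84 (0.85). For Dusp2 they were Rhog (0.81), Msr1 (0.77) and Fcgr3 (0.77), and for Dusp16 Irak3 (0.88), Klra2 (0.87) and Hcar2 (0.86). Dusp4 was most like Ankrd24 (0.88), Sirt6 (0.84) and Snapc5 (0.84). Dusp6, with few values above 0, was most like Mfsd6l (0.89), Clstn1 (0.86) and Was (0.85). Dusp5 was most like Ganab and Ints5 (both 0.89), which share a summit, and Sh3bp1 (0.85).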

How the data were processed

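Pol II ChIP-seq libraries of N4bp1 KO and WT macrophages were prepared and sequenced as single-end reads per the labels' protocols, and the submitters' processing notes name GSNAP, MACS2 and GRCm38. Versions, peak threshold, control and depth scaling are not given in the sources used here. The 16 deposited files each list the 1 bp summits of 1 library with the authors' score, a −log10 of either p or q, which served only for ordering. Without read counts in the files, depth is unknown and no counting interval can be printed. The input sample was not used here.

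Lists were shortened to 8394 summits, and the best rank within each gene span ± 1 kb was turned into a rank score. A summit in several regions counted for each. Besides Astl, long non-coding RNA genes overlap the regions of Dusp1 (Gm34455), Dusp2 (Gm46762), Dusp6 (Gm34921) and Dusp16 (Gm36328 and 1700055D16Rik). Gene spans came from the RefSeq annotation of GRCm38.p6, matched by symbol (6 of 6). Genes with a summit in at least 2 shortened lists were fitted in R 4.3.3 (limma 3.58.1): group means as coefficients, moderated variances with a trend, and Benjamini-Hochberg adjustment within a contrast. All groups of 2 entered 1 fit to share the spread. The steps were tested on simulated data. Replicate numbers did not pair the libraries: deviations correlated over 0.1 in 1 of 28 pairs of groups. Alternatives changed the lists, the region, the measure, the filter, the variance model, the samples fitted and each library. Named pathway genes were up to 4 per list with the largest change among those that passed, and any that passed between genotypes; the likest genes were the 3 with the highest r. The values of 1 gene that this rule names are not reported here. The members and lists were chosen with earlier results of these data known.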

Additional observations from a re-analysis of the deposited data

Results flagged for a closer look

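The difference between KO and WT went opposite ways at different times in 2 genes, with every KO library on the same side of the WT mean at each of the times. The spread of the WT libraries did not enter this rule, and the share of all genes that meet it was not determined. These differences between times were not tested. For Dusp6, KO minus WT in rank score was −0.30 and −0.24 in untreated cells and 0.03 and 0.84 at 6 h, a gap of −0.70. The KO and WT libraries overlapped at both times. The rank scores were 0 and 0.06 in KO against 0.60 and 0 in WT untreated, and 0.55 and 1.36 against 0.02 and 1.02 at 6 h. With the gene span extended by 3 kb, which takes in summits upstream of Dusp6, KO minus WT in untreated cells was 2.34 ± 0.76 (limma, adjusted p = 0.21) and 0.05 ± 0.76 at 6 h (limma, adjusted p = 1), so the opposite directions rest on the 1 kb margin. For Dusp16, KO minus WT in rank score was −1.52 and −0.67 at 4 h and 0.51 and 2.59 at 6 h, a gap of −2.64. By the number of summits, Dusp16 was instead higher in KO at both times. The differences at 4 h and 6 h were 1.95 and 3.97 in the deposited lists, and 1.16 and 1.89 in the shortened lists. Replicate 2 of KO at 6 h gave the higher of the 6 h rank score differences for Dusp6 (0.84) and the lower for Dusp16 (0.51).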

How the results depend on the processing

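Of 2639 alternative values for 90 changes in the 6 genes, 2405 kept their side of the threshold and did not change sign. These include values that were 0 as reported or became 0. Of the rest, 43 no longer passed, 51 newly passed and 129 changed sign without passing in either setting. The last 11 changed sign where the change either as reported or under the alternative had passed.

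The counts of genes that passed moved with the region, with counting summits and with other choices. Numbers in brackets are all genes that passed as higher and as lower in that setting. Genes tested were 8473 as reported, 10916 with deposited lists or summits counted, and 8473 with shortened counts. They were 7220 with the span alone, 8873 with 3 kb, 6100 near the start and 5234 with 1 rank per gene. Over both genotypes 3 passed as reported (491 and 2502) and 1 with the gene span alone (393 and 1842). With summits near the start alone 0 passed (200 and 1744), and Dusp4 has no value there. For WT at 2 h 1 passed as reported (299 and 1107). With the span alone or near the start 0 passed (258 and 741, 80 and 643). With summits counted in shortened lists (chosen after seeing the data) 0 passed too (395 and 1100). With the lists as deposited, the span extended by 3 kb or summits counted, 2 passed (200 and 4311, 338 and 1170, 260 and 3917). Dusp6 passed as a fall with the lists as deposited (−1.65) and with summits counted (−1.29). For WT at 4 h 1 passed (299 and 926), and 2 with 3 kb (337 and 982). Near the start and with shortened counts 0 passed (100 and 563, 308 and 805). With only the groups compared 0 passed (87 and 54 of 6552). For WT at 6 h 0 passed (263 and 1192), and 1 with summits counted (248 and 2623) or shortened counts (350 and 1082). For KO at 2 h 1 passed (223 and 830). With summits counted (219 and 2364) or no variance trend (247 and 836) 2 passed, and 0 with shortened counts (338 and 859). Fits with the first 6 h libraries only (chosen after seeing the data) left 1 library in a 6 h group. Their counts are left out here. For KO at 4 h 0 passed (321 and 779). Deposited lists (432 and 954), 3 kb (361 and 849) and start only (111 and 491) each gave 1. Summits counted (513 and 850) and shortened counts (295 and 669) gave 1 as well. For KO at 6 h 2 passed (435 and 939). With 1 rank per gene (335 and 360), a filter of 1 list (405 and 898 of 9471) or only the groups compared (87 and 115 of 6949) 1 passed. With the span alone (382 and 808), start only (233 and 650) or no trend (436 and 893) 0 passed. KO against WT had 0 as reported (56 and 65 untreated, 1 and 5 at 2 h, 14 and 20 at 4 h, 96 and 17 at 6 h). With 3 kb 1 passed in untreated cells, Dusp2 lower in KO (56 and 58), and 1 for the response (42 and 27). With summits counted 1 passed at 4 h (220 and 20), at 6 h (997 and 30) and over all R837 times (628 and 34). At 6 h 1 also passed with deposited lists (832 and 7). In KO against untreated, falls passed for Dusp6 at 2 h with summits counted (219 and 2364) and Dusp1 at 4 h near the start (111 and 491). Between 6 h and 2 h in KO, Dusp2 fell with the span alone (216 and 140). Deposited lists gave 1592 and 61 there, and summits counted 1422 and 57. At 6 h against 2 h, 0 passed as reported (91 and 163 in WT, 279 and 153 in KO). WT had 1 with 1 rank per gene (101 and 146) or summits counted (166 and 106). It also had 1 with shortened counts (232 and 288) or no trend (129 and 210). KO had 1 with 1 rank per gene (171 and 167) or the span alone, and 2 with deposited lists or summits counted.

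Sign changes of this kind were seen for Dusp1 over both genotypes (−1.03 with the span alone, −0.86 near the start, −0.083 with summits counted, −0.13 with shortened counts), in WT at 2 h (−0.21 and −0.29 by the same counts) and in KO at 4 h near the start (−7.16). Others were Dusp6 over both genotypes (−0.63, summits counted), Dusp2 in KO at 6 h (−0.69, span alone) and in WT at 6 h against 2 h (0.79, shortened counts), and Dusp16 in KO against WT at 4 h (1.95, summits counted). Their causes were not tested.

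Leaving out 1 library gave 2 to 3 genes over both genotypes, 1 to 2 for WT at 2 h, 0 to 1 for WT at 4 h, 0 for WT at 6 h, 1 for KO at 2 h, 0 to 1 for KO at 4 h and 0 to 3 for KO at 6 h. KO against WT gave 0 to 1 untreated and at 4 h and 0 at 2 h, 6 h, over all R837 times and for the response, and 6 h against 2 h gave 0 to 1 in either genotype. Where 1 library was left in a group, it was assumed to vary like the others.

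With the replicate number as a block, 1 gene passed in KO at 6 h (Dusp2) in place of 2 (413 and 909). For the 6 genes the counts of the other comparisons did not change. Replicate numbers do not pair the libraries. Fits of only the groups compared were not made over both genotypes or for the response, which use all groups. Unknown read depth and 2 libraries a group limit what these comparisons can detect.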
